A study of Mus musculus with 6 samples.

Results

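The guanylate-binding proteins (GBPs) and the immunity-related GTPases (IRGs) are families of GTPases that interferon-gamma induces, and 10 of their genes were followed in subcutaneous hepatoma tumors of the mouse. The genes were Gbp2, Gbp3, Gbp5, Gbp6, Gbp7, Igtp, Irgm1, Irgm2, Iigp1, and Tgtp1, each found by its exact symbol among the 26167 genes of the expression table. All 6 tumors arose from Hepa1-6 cells, a mouse hepatoma line, that were injected under the skin of female C57BL/6J mice aged 6 to 8 weeks, and no genetic change is given for either group. The 3 Sora-treated tumors, labeled 2, 3, and 4, came from mice that received sorafenib (Sora), an inhibitor of several kinases, at 10 mg/kg intraperitoneally, with doses on days 9, 11, 13, and 15 counted from the injection of the cells. The 3 control tumors, labeled 1, 3, and 4, came from mice without Sora, and whether they received vehicle is not given in the sources used here. One RNA-seq library was made per tumor, so each value mixes tumor cells, leukocytes, and vessels of a single graft of a cell line.

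Interferon-gamma, released mainly by T and NK cells, binds a receptor that signals through the kinases JAK1 and JAK2. Its target genes carry gamma-activated sites (GAS) and interferon-stimulated response elements (ISREs) in their promoters, and the induced factor IRF1 binds ISREs. The GBPs are large GTPases related to dynamin that coat bacteria and the vacuoles of intracellular parasites and promote inflammasome activation. Among the smaller IRG proteins, Irgm1, Irgm2, and Igtp (also called Irgm3) are regulators that sit on the cell's own membranes, whereas Iigp1 (Irga6) and Tgtp1 (Irgb6) are effectors that load onto vacuoles of parasites. Macrophages, endothelial cells, and many tumor cells make these proteins when they meet interferon-gamma.

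The promoters of the members are shown because they are the stretches where GAS and ISRE elements lie. Windows from 250 bases before to 50 bases after the start in RefSeq's annotation of GRCm38.p6 were at hand for 8 of the 10 members, with 2 windows for Gbp3. Gbp6 and Iigp1 are in that annotation but had no promoter window. Both strands were searched for GAS (TTCNNNGAA, which reads the same on both strands) and for an ISRE core (GAAANNGAAA or its reverse complement). Below, 4 windows are printed 5′ to 3′ on the strand of the gene, with the matches in capitals. Irgm2 and Gbp7 were the members that edgeR called down-regulated from all 6 tumors at an adjusted p under 0.05 (other tests and sets of tumors gave 0 to 9 members), and Igtp and Tgtp1 share the arrangement of Irgm2.
Irgm2, chr11:58214727-58215026, plus strand: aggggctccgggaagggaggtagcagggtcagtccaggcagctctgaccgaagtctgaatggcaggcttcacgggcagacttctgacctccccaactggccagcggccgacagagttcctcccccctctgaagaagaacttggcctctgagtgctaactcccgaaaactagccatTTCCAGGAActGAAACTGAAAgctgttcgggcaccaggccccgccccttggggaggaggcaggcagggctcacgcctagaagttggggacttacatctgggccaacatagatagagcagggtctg
Igtp, chr11:58199306-58199605, plus strand: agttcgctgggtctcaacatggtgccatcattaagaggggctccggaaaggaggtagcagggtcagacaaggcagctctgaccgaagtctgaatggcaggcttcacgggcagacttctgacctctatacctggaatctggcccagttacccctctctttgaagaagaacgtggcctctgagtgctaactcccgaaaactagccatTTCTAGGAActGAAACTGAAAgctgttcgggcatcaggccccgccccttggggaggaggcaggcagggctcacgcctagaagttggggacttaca
Tgtp1, chr11:48992197-48992496, minus strand: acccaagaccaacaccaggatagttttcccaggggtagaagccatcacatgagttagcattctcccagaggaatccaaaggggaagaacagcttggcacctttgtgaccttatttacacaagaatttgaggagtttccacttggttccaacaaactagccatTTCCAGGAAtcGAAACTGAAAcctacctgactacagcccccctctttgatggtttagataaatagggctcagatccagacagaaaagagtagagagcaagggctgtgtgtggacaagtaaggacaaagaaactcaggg
Gbp7, chr3:142530086-142530385, plus strand: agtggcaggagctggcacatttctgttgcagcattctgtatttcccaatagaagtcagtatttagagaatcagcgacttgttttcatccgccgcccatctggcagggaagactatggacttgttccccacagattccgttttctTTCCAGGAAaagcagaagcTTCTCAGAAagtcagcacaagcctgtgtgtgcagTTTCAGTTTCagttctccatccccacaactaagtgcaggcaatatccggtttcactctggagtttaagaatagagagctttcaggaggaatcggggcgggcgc

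In Irgm2, Igtp, and Tgtp1, the ISRE match GAAACTGAAA began 11 bases after the first base of the GAS match. The GAS match was TTCCAGGAA in Irgm2 and Tgtp1 and TTCTAGGAA in Igtp, and it began at positions -75, -88, and -45 from the start, respectively. This spacing occurred in 5 of 32851 RefSeq promoters (0.0152%), and the other 2 belonged to the IRG genes Tgtp2 and Gm12185. The spacing was counted after the windows had been seen, and these promoters are not independent. Irgm2 and Igtp share a run of 61 identical bases around their starts, and Irgm2 and Tgtp1 share a run of 20 bases that holds the GAS match. Gbp7 held GAS matches at -106 and -87 and an ISRE match on the other strand at -53. Gbp5 had GAS matches at -245 and -52 and an ISRE match at -165.

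Of the 9 member windows, 8 held an ISRE core (88.9%), compared with 3.44% of all RefSeq promoters. GAS was found in 5 of 9 windows (55.6%), compared with 8.3% of all promoters, and both elements in the same 5, compared with 0.454%. Gbp2, Gbp3, and Irgm1 had ISRE matches but no GAS match, and the pairs of ISRE matches in Gbp3 (-45 and -39) and Irgm1 (-30 and -24) overlap each other. No GAS match overlapped an ISRE match. A match is a description of letters, and binding was not measured.

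**Figure D1:**
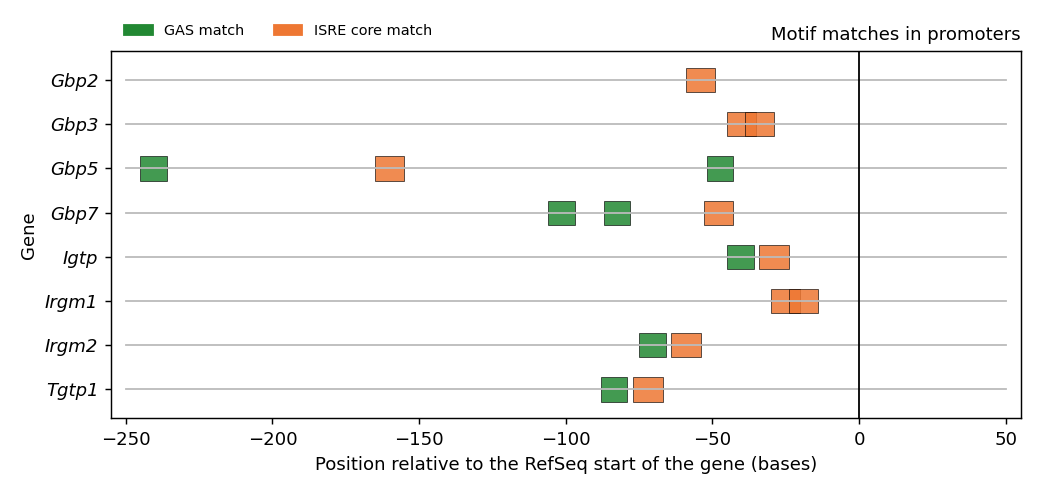
Matches to GAS (green) and to the ISRE core (orange) in the promoter windows of the 8 members that had one, by position in bases from the RefSeq start (vertical line). Irgm2, Igtp, and Tgtp1 show a GAS match with an ISRE match beginning 11 bases after it, and all matches except the first GAS match and the ISRE match of Gbp5 begin within 106 bases of the start.

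Reads were counted per gene by the authors and also given as FPKM, which divides counts by gene length and by library total, so that levels of different genes can be compared. Libraries held 31073830 to 36205814 counted reads. Differences were tested on counts with edgeR's quasi-likelihood test, scaled by TMM and adjusted after Benjamini and Hochberg over 16513 genes, and CPM (counts relative to the scaled library total) are on the same scale. The count table used here lacks Sora-treated tumor 4, whose whole counts were recovered from its FPKM. The hepatoma markers Alb (974 to 1680 FPKM) and Afp (322 to 483 FPKM) were abundant in every tumor, whereas Ahsg, a plasma protein gene of hepatocytes, was near 0 (0.0204 to 0.168 FPKM). In total, 321 up-regulated genes and 222 down-regulated genes were found after Sora at an adjusted p under 0.05.

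The mean of each of the 10 members was lower after Sora than in control tumors, and 2 of them, Irgm2 and Gbp7, were down-regulated at an adjusted p under 0.05 (edgeR). Among all genes tested, 1.34% were down-regulated at this threshold and 50.1% had a log2 fold change under 0. Log2 fold changes of the members ran from -0.55 (Gbp5) to -0.34 (Gbp2), with a median of -0.48, whereas the median over all genes tested was -0.00037. In 9 of 10 members every Sora-treated tumor lay below every control tumor in CPM, compared with 11.6% of all genes tested. The exception was Gbp2. In bulk tumor RNA, fewer cells that express these genes and less of their RNA per cell cannot be told apart.

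The number of members called depended on the tumors and the test used. DESeq2, the tool of the study, called 8 of 10 members down-regulated (all except Gbp2 and Igtp), compared with 3.71% of its genes. The study also required a log2 fold change over 1 in size, which no member reached (the lowest in DESeq2 was -0.55, Gbp5). Without a filter on low counts edgeR called 9 (all except Gbp2; 2.28% of genes). Limma called 1 member, Irgm2, on log2(FPKM + 1) and on log2(FPKM + 0.1) of genes that reached 1 FPKM in 3 tumors, where 0.861% and 0.699% of genes were down-regulated. On log2(FPKM + 1) of all genes limma called 0 genes and 0 members, with 8 members and 5.96% of genes lower at an unadjusted p under 0.05. Without Sora-treated tumor 3 edgeR called 6, namely Gbp3, Gbp5, Gbp6, Gbp7, Irgm2, and Iigp1 (3.5% of genes). With any of the other 5 tumors left out, edgeR called none at an adjusted p under 0.05, although 8 to 10 members were lower at an unadjusted p under 0.05 in each of these fits, compared with 5.8% to 8.2% of all genes. Every member kept a log2 fold change under 0 in each of the 16 alternative settings, with values from -0.69 to -0.10. With Sora-treated tumor 2 left out, the size of the log2 fold change fell most for Gbp2 (to -0.10) and Igtp (to -0.22), and by over 1.5 times also for Gbp3, Gbp5, Gbp6, and Tgtp1 (-0.36 to -0.31).

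**Figure D2:**
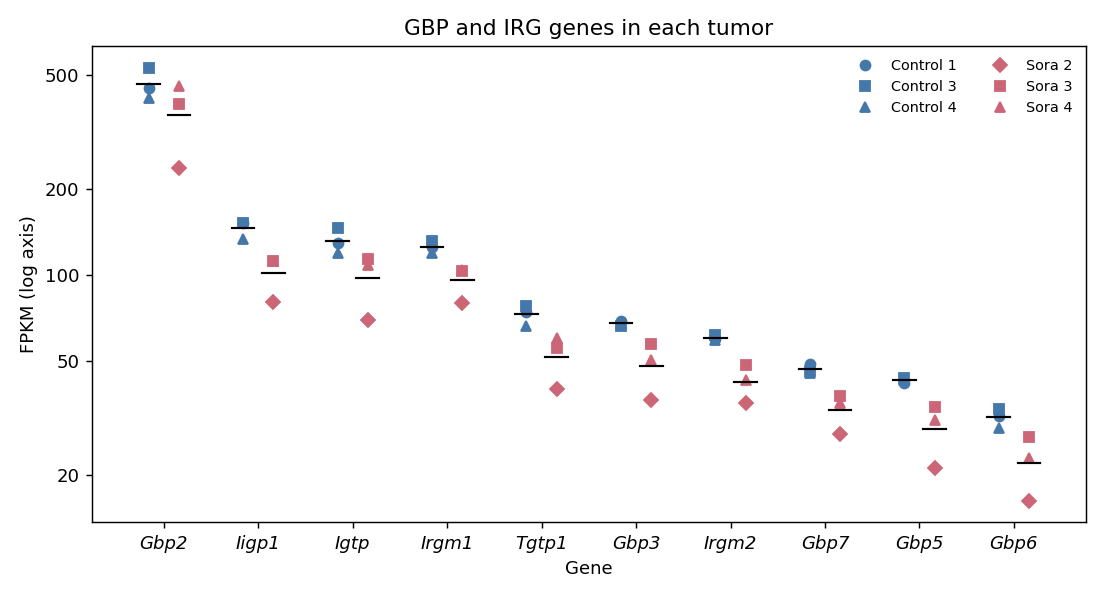
FPKM (log axis) of the 10 members in 3 control tumors (blue) and 3 Sora-treated tumors (red), 1 point per tumor, with horizontal lines at the group means; genes are ordered by the control mean. Sora-treated tumor 2 is the lowest point for every gene, and only for Gbp2 does a Sora-treated tumor (tumor 4, 457 FPKM) reach into the control range.

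Among the GBPs, Gbp2 was the most abundant member, at 449.9, 529, and 413 FPKM in control tumors 1, 3, and 4, against 235, 394, and 457 FPKM in Sora-treated tumors 2, 3, and 4. The groups overlapped, because Sora-treated tumor 4 lay above control tumors 1 and 4. In CPM the means were 1137 ± 170.0 and 896 ± 296 (SD, n = 3), a log2 fold change of -0.34 (standard error, SE, 0.21; edgeR adjusted p = 0.44). This difference was not larger than the spread between tumors. It was -0.22 with control tumor 3 left out, -0.10 with Sora-treated tumor 2 left out, and -0.57 with Sora-treated tumor 4 left out.

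By RefSeq, Gbp3 lies between Gbp7 and Gbp2b in a cluster on chromosome 3 that also holds Gbp2 and Gbp5. It had 69.2, 66.5, and 67.6 FPKM in control tumors 1, 3, and 4, against 36.7, 57.4, and 50.5 FPKM in Sora-treated tumors 2, 3, and 4. The control tumors were nearly equal, and the Sora-treated tumors all lay below them and varied more. Its means were 214 ± 1.73 and 154 ± 33.7 CPM (SD, n = 3), which gave a log2 fold change of -0.48 (SE 0.13, edgeR adjusted p = 0.078).

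Gbp5, which promotes assembly of the NLRP3 inflammasome, had 41.9, 43.8, and 43.0 FPKM in control tumors 1, 3, and 4, against 21.3, 34.8, and 31.2 FPKM in Sora-treated tumors 2, 3, and 4. The groups did not overlap, and Sora-treated tumor 2 was the lowest. Its log2 fold change, -0.55, was the lowest of the members (SE 0.15, edgeR adjusted p = 0.070; 129 ± 6.07 and 88.3 ± 21.4 CPM, SD, n = 3).

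Gbp7, which contributes to the antibacterial oxidative burst of macrophages, was down-regulated. It had 48.8, 46.3, and 45.5 FPKM in control tumors 1, 3, and 4, against 27.97, 37.7, and 35.8 FPKM in Sora-treated tumors 2, 3, and 4. The groups were apart, by less for Sora-treated tumors 3 and 4 than for tumor 2. The means were 262 ± 7.57 and 191 ± 30.3 CPM (SD, n = 3), a log2 fold change of -0.46 (SE 0.11, edgeR adjusted p = 0.045). With Sora-treated tumor 2 or tumor 4 left out, the adjusted p in the same test was 0.11 or 0.12.

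Gbp6, in the cluster on chromosome 5, had 32.3, 34.1, and 29.3 FPKM in control tumors 1, 3, and 4, against 16.3, 27.1, and 22.9 FPKM in Sora-treated tumors 2, 3, and 4. The highest Sora-treated tumor lay just below the lowest control tumor. Its log2 fold change was -0.52 (SE 0.15, edgeR adjusted p = 0.096). Gbp6 shares 97.4% of its longest coding transcript with Gbp10 at 98.7% identity (GENCODE M21), so reads can be split between both genes and each value is uncertain. The GENCODE transcript of Gm43302, which was not analysed here, matches 2603 of the 2604 bases of Gbp6 at 99.8% identity. The sum of both genes was 266 ± 29.9 CPM in control tumors and 183 ± 49.0 CPM in Sora-treated tumors (SD, n = 3), and its groups did not overlap either, but the sum leaves out any reads assigned to Gm43302.

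Of the regulatory IRGs, Irgm2 was down-regulated and had the lowest adjusted p of the members. Its levels were 59.8, 61.9, and 59.4 FPKM in control tumors 1, 3, and 4, against 35.9, 48.5, and 43.0 FPKM in Sora-treated tumors 2, 3, and 4. The control tumors lay within a narrow band, and every Sora-treated tumor was below it. The means were 212 ± 9.74 and 149.9 ± 22.4 CPM (SD, n = 3), which gave a log2 fold change of -0.50 (SE 0.10, edgeR adjusted p = 0.031). Leaving out Sora-treated tumor 2 or tumor 4 raised the adjusted p to 0.087 or 0.12 in the same test.

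Irgm1, which acts in autophagy and in the survival of activated T cells and macrophages, had 125, 132, and 119 FPKM in control tumors 1, 3, and 4, against 79.9, 104, and 104 FPKM in Sora-treated tumors 2, 3, and 4. Sora-treated tumors 3 and 4 were alike, and all 3 treated tumors were below the controls. The log2 fold change was -0.37 (SE 0.11, edgeR adjusted p = 0.099; 345 ± 24.6 and 267 ± 41.3 CPM, SD, n = 3).

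Igtp, the neighbor of Irgm2 on chromosome 11, had 129, 146, and 119 FPKM in control tumors 1, 3, and 4, against 69.7, 114, and 109 FPKM in Sora-treated tumors 2, 3, and 4. The groups did not overlap, but Sora-treated tumor 3 came close to control tumor 4. Its log2 fold change was -0.42 (SE 0.16, edgeR adjusted p = 0.21; 265 ± 32.3 and 198 ± 50.2 CPM, SD, n = 3).

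Of the effector IRGs, Iigp1 was the second most abundant member. It had 151, 152, and 134 FPKM in control tumors 1, 3, and 4, against 80.3, 112, and 112 FPKM in Sora-treated tumors 2, 3, and 4. All treated tumors were below all control tumors. The means were 505 ± 40.1 and 355 ± 67.4 CPM (SD, n = 3), which gave a log2 fold change of -0.51 (SE 0.13, edgeR adjusted p = 0.057).

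Tgtp1 had 74.2, 78.1, and 66.4 FPKM in control tumors 1, 3, and 4, against 39.9, 55.5, and 60.4 FPKM in Sora-treated tumors 2, 3, and 4. Here Sora-treated tumor 4 was the highest of the treated tumors, still below every control. The log2 fold change was -0.48 (SE 0.14, edgeR adjusted p = 0.099; 204 ± 19.8 and 147 ± 32.3 CPM, SD, n = 3). Tgtp1 shares 99.6% of its transcript with Tgtp2 at 99.8% identity, so the split of reads between them is uncertain. The sum of both was 355 ± 28.3 CPM in control tumors and 252 ± 57.5 CPM in Sora-treated tumors (SD, n = 3), without overlap.

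Levels per length in control tumors fell in the order Gbp2, Iigp1, Igtp, Irgm1, Tgtp1, Gbp3, Irgm2, Gbp7, Gbp5, and Gbp6. In this order the FPKM ranges of control tumors overlapped for Iigp1 and Igtp, for Igtp and Irgm1, and for Tgtp1 and Gbp3, and were apart for the 6 other neighboring pairs. The 10 members together took 0.319% to 0.369% of counted reads in control tumors but 0.188%, 0.283%, and 0.291% of such reads in Sora-treated tumors 2, 3, and 4. The lowest count of any member in any tumor was 1997 reads (Gbp5, Sora-treated tumor 2).

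The members varied together. Relative to the control mean of each gene, Sora-treated tumor 2 held 49.4% (Gbp5) to 63.6% (Irgm1) of the CPM, with a median of 54.3%, and was the lowest tumor for all 10 members. Sora-treated tumor 3 held 75.5% to 85.8%, and Sora-treated tumor 4 held 73.6% to 85.9% for all members except Gbp2, which was at 102%. Among the control tumors, tumor 3 was the highest for 9 members. Across the 45 pairs of members, Pearson's r of log2(CPM + 1) over the 6 tumors ran from 0.80 to 0.99 with a median of 0.97. After subtraction of the group means it ran from 0.84 to 0.99. These are descriptions over 6 libraries of 2 groups.

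**Figure D3:**
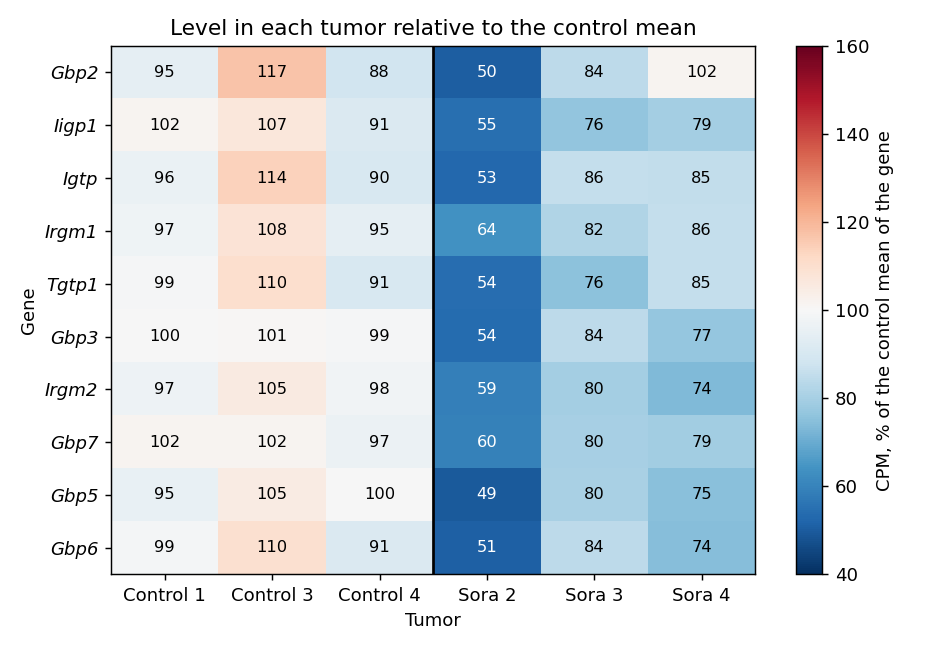
CPM of each member in each tumor as a percentage of the mean of the 3 control tumors for that gene (color and number), with genes as rows and tumors as columns; the vertical line separates control from Sora-treated tumors. Sora-treated tumor 2 lies between 49.4% and 63.6% for every gene, and Gbp2 in Sora-treated tumor 4 is the one treated value above 100%.

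The FPKM ratio of Gbp2 to Gbp3 was 6.50, 7.95, and 6.11 in control tumors 1, 3, and 4, against 6.41, 6.87, and 9.07 in Sora-treated tumors 2, 3, and 4, so treated tumors 2 and 3 lay within the control range and tumor 4 above it. The ratio of Gbp2b to Gbp3 moved the other way in that tumor, with 0.278, 0.289, and 0.255 in control tumors, against 0.251, 0.223, and 0.145 in Sora-treated tumors 2, 3, and 4.

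Of the other GBP and IRG genes listed, 16 were tested, and 14 of them had a log2 fold change under 0, with a median of -0.40. Gbp2b, Gbp8, and Gm5431 were down-regulated. Gbp2b, the gene once called Gbp1, had 19.2, 19.2, and 17.2 FPKM in control tumors, against 9.23, 12.8, and 7.33 FPKM in Sora-treated tumors 2, 3, and 4, and here tumor 4 was the lowest. Its log2 fold change was -0.92 (SE 0.16, edgeR adjusted p = 0.017), larger in size than that of any member. Gbp8 had a log2 fold change of -0.47 (adjusted p = 0.019) and Gm5431, an IRG gene at 2.09 to 7.12 FPKM, one of -1.03 (adjusted p = 0.023) in the same edgeR test. Gm5431 shares 96.9% of its transcript with 9930111J21Rik1, so its value is uncertain. Without Sora-treated tumor 4, the adjusted p of Gbp2b, Gbp8, and Gm5431 was 0.070, 0.10, and 0.11 (edgeR). Of the 6 fits with 1 tumor left out, Gbp2b was called in 4 (not without Sora-treated tumors 2 or 4), Gbp8 in 3 (nor without control tumor 1), and Gm5431 in the 2 without Sora-treated tumors 2 or 3.

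The other 13 family genes tested had log2 fold changes from -0.58 to 0.05, and edgeR called none of them at an adjusted p under 0.05. In edgeR, 12 of the 16 genes were lower at an unadjusted p under 0.05, compared with 8.69% of all genes. DESeq2 called 10 of the 16 down-regulated, namely Gbp2b, Gbp8, Gm5431, Gbp4, Gbp9, Tgtp2, Ifi47, Gm12250, F830016B08Rik, and Gm12185. The GBPs Gbp10 (-0.58), Gbp4 (-0.40), and Gbp9 (-0.38) and the IRGs Gm12250, also called Irgb10 (-0.56), Tgtp2 (-0.52), F830016B08Rik (-0.48), and Ifi47 (-0.40) each had treated tumors below every control tumor. So did Gm12185 (-0.40), 9930111J21Rik2 (-0.33), and the very large interferon-inducible GTPase Gvin1 (-0.33), with adjusted p from 0.052 to 0.66 over these 10 genes (edgeR). The groups of 9930111J21Rik1 (-0.16) overlapped. The values of Gvin1, 9930111J21Rik1, and 9930111J21Rik2 are uncertain as well, since all of the Gvin1 transcript matches that of another gene at 99.967% identity, and all of the 9930111J21Rik1 transcript matches 9930111J21Rik2 at 98.975% identity over the longest match. Irgq (0.05) and Irgc1 (0.01), IRG relatives outside the interferon-inducible group, also overlapped, and Irgc1 stayed under 0.34 FPKM. By chromosome, the median log2 fold change of members and other family genes was -0.48 on chromosome 3 (5 genes), -0.47 on chromosome 5 (5 genes), and -0.42 on chromosome 11 (11 genes), and every gene in these clusters was below 0. The 2 listed genes on chromosome 18 had a median of -0.50, and the 3 on chromosome 7 (Gvin1, Irgc1, and Irgq) one of 0.01, with 1 of them below 0. Iigp1c, a close relative of Iigp1 that was added after its values had been seen, was down-regulated at a log2 fold change of -0.59 (edgeR adjusted p = 0.032), with means of 71.5 ± 5.71 CPM in control and 47.6 ± 8.71 CPM in Sora-treated tumors (SD, n = 3).

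**Figure D4:**
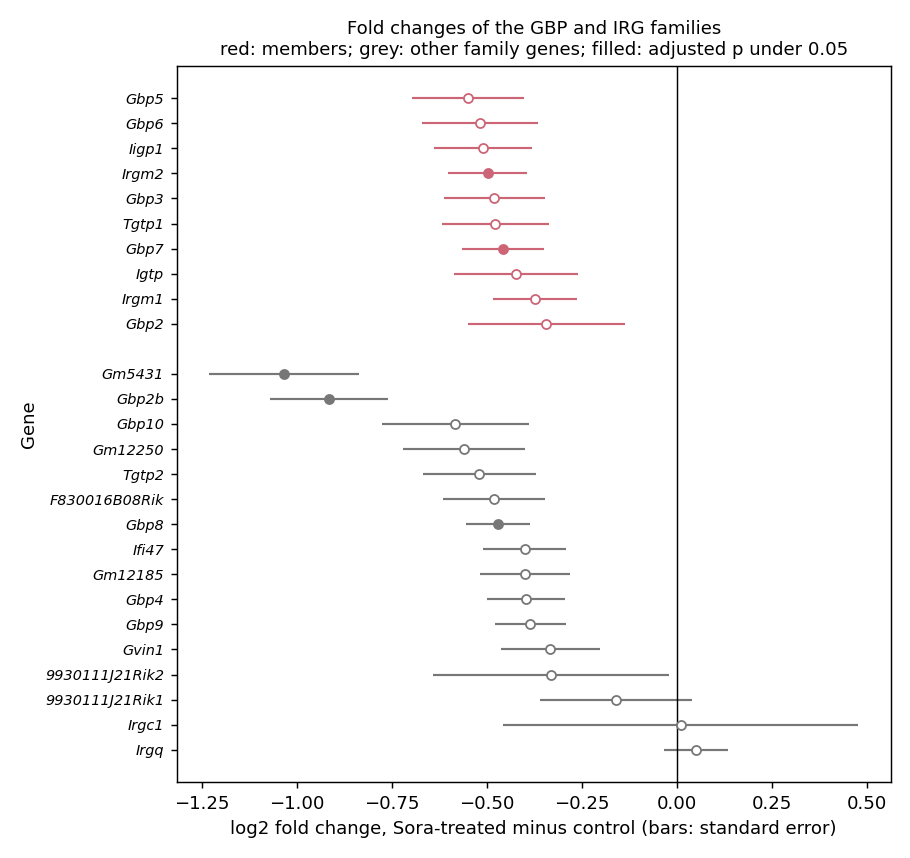
Log2 fold change (Sora-treated minus control) with its standard error from edgeR for the 10 members (red) and the 16 other GBP and IRG genes tested (grey); filled points have an adjusted p under 0.05. All members lie left of 0, from -0.55 to -0.34, and Irgm2, Gbp7, Gbp2b, Gbp8, and Gm5431 are filled.

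The pathway above the members was described with 14 genes of interferon-gamma signaling. EdgeR called 0 of them (median log2 fold change -0.13), with 3 lower and 2 higher at an unadjusted p under 0.05, whereas DESeq2 called Jak2 and the feedback inhibitor Socs3 up-regulated. Ifng, the ligand, had 6.03, 5.58, and 6.14 FPKM in control tumors, against 4.04, 7.23, and 5.01 FPKM in Sora-treated tumors 2, 3, and 4. The groups overlapped, with Sora-treated tumor 3 the highest of all and tumor 2 the lowest (log2 fold change -0.11, adjusted p = 0.83, edgeR). The receptor genes Ifngr1 (-0.16) and Ifngr2 (-0.19) and the kinase Jak1 (-0.16) had adjusted p from 0.19 to 0.32 (edgeR), and in CPM all treated tumors lay below the controls for each of these 3 genes. Jak2 had a log2 fold change of 0.29 (edgeR adjusted p = 0.056) with all treated tumors above the controls. Over the 14 signaling genes, the treated tumors lay below every control for 7 and above every control for 2. Among all 16513 genes tested, they lay below every control for 1911 (11.6%) and above every control for 1758.

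Irf1, a transcription factor that interferon-gamma induces (log2 fold change -0.25, adjusted p = 0.35) and Socs1, another feedback inhibitor (-0.30, adjusted p = 0.32), were not called by edgeR. In the list of genes that produce or induce interferon-gamma, 10 of 11 tested had a log2 fold change under 0 (median -0.43, or -0.22 without control tumor 1). EdgeR called 0 of them, 5 were lower at an unadjusted p under 0.05, and DESeq2 called Il18r1, a subunit of the IL-18 receptor, down-regulated (log2 fold change -0.45 in edgeR, adjusted p = 0.070).

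Among 20 other targets of interferon-gamma, 18 had a log2 fold change under 0 and 2 were down-regulated (median -0.25). These were Ciita, the master regulator of MHC class II genes (-0.61, adjusted p = 0.047), and Serpina3g, a protease inhibitor (-0.59, adjusted p = 0.039, edgeR). The chemokine genes Cxcl10 (-0.48, adjusted p = 0.058) and Cxcl9 (-0.36, adjusted p = 0.31) and the immunoproteasome subunit Psmb9 (-0.16, adjusted p = 0.61) were not called by edgeR. DESeq2 called 5 of the 20 down-regulated, with Cxcl10, Cd74, and Slamf8 added. Without Sora-treated tumor 2 the median of these targets was -0.16. Cd274, which encodes PD-L1, had a log2 fold change of 0.36 (adjusted p = 0.19, edgeR), with the highest value, 78.7 FPKM, in Sora-treated tumor 4. Ido1 had one of 0.61 (adjusted p = 0.29, edgeR), and its highest value, 20.1 FPKM, was also in Sora-treated tumor 4. At an unadjusted p under 0.05 in edgeR, these 2 targets were higher and 10 of the 20 were lower. The 16 genes of ATG8 conjugation and the inflammasome, with whose products GBPs and IRGs work, had a median of -0.05 (-0.0084 without Sora-treated tumor 2 and -0.096 without control tumor 4), and Casp1 was the one called by edgeR and by DESeq2 (-0.44, adjusted p = 0.038). Of 21 interferon-stimulated genes of the type I response, 20 had a log2 fold change under 0 and Ifit2 was down-regulated (-0.64, adjusted p = 0.029), with a median of -0.23 (-0.12 without Sora-treated tumor 2). DESeq2 called 3 of these 21 down-regulated. Ciita, Casp1, and Ifit2 were called in 1 of the 6 fits with a tumor left out, the one without Sora-treated tumor 3, and Serpina3g in 2, also without control tumor 4. Without Sora-treated tumor 4 their adjusted p ran from 0.10 to 0.21 (edgeR).

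**Figure D5:**
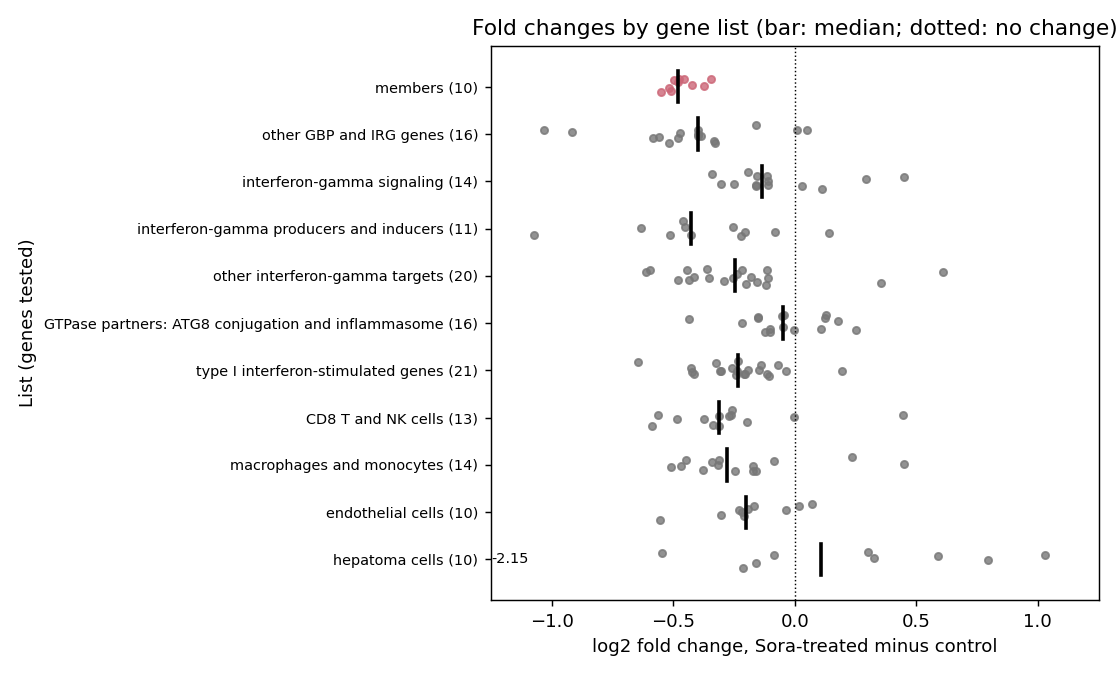
Log2 fold changes (Sora-treated minus control, edgeR) of the genes tested in each list, 1 point per gene, with a bar at the median and the number of genes tested in parentheses; 1 hepatoma gene beyond the axis is written as its value. The members lie between -0.55 and -0.34, whereas the signaling genes have a median of -0.13 and the ATG8 and inflammasome genes one of -0.05.

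Most markers of leukocytes had a lower mean in the tumors in which the members were lower. Of 13 genes of CD8 T and NK cells, 12 had a log2 fold change under 0 (median -0.31) and Cd8b1 was down-regulated (-0.56, adjusted p = 0.018, edgeR). Cd8a (-0.31), Gzmb (-0.49), and Ccl5 (-0.31), which had the most reads of the list by mean CPM, were not called by edgeR. At an unadjusted p under 0.05, 8 of the 13 were lower, and DESeq2 called Cd8b1 and Nkg7. The mean log2(CPM + 1) of this list was 4.30 to 4.66 in control tumors and 4.15 to 4.31 in Sora-treated tumors, while that of the members was 8.03 to 8.22 and 7.25 to 7.82. Of 14 macrophage and monocyte genes, 12 had a log2 fold change under 0 (median -0.28) and Mertk was down-regulated (-0.45, adjusted p = 0.031, edgeR), with log2 fold changes of -0.09 for Lyz2, -0.34 for C1qb, and -0.32 for C1qa. DESeq2 called 7 of these 14 down-regulated. At an unadjusted p under 0.05 in edgeR, 8 were lower and 2 were higher, Itgam (0.24) and Cd14 (0.45). The mean of the list was 7.11 to 7.31 in control tumors and 6.95 to 7.10 in Sora-treated tumors. Sora-treated tumor 2, the lowest tumor for every member, was also the lowest for both lists, at 4.15 and 6.95. Sora-treated tumor 3 was at 4.29 and 7.10, and tumor 4 of that group was at 4.31 and 6.96, close to tumor 2 in the macrophage and monocyte list. Of the 6 fits with 1 tumor left out, edgeR called Cd8b1 in 3 (not without control tumor 1 or Sora-treated tumors 2 or 4) and Mertk in the 1 without Sora-treated tumor 3. With Sora-treated tumor 4 left out, the adjusted p was 0.089 for Cd8b1 and 0.16 for Mertk (edgeR). Markers of the NK lineage were low, with Ncr1 at 0.511 to 1.13 FPKM and Klrb1c at 0.616 to 1.01 FPKM.

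Endothelial markers overlapped between the groups (8 of 10 lower, median -0.20), with means of 4.35 to 4.53 in control tumors and 4.02 to 4.52 in Sora-treated tumors on the same scale, and Pecam1 (-0.23), Esam (-0.19), and Cdh5 (-0.21) had the highest mean CPM. The median was -0.11 without Sora-treated tumor 4, -0.13 without control tumor 4, and -0.31 without Sora-treated tumor 3. EdgeR and DESeq2 each called 0 of them, with 1 lower at an unadjusted p under 0.05 in edgeR. Hepatoma markers went both ways. Alb (-0.55, adjusted p = 0.041) and Ttr (-2.15, adjusted p = 0.0055) were down-regulated and Apoa1 (1.03, adjusted p = 0.047) and Hnf4a (0.80, adjusted p = 0.013) were up-regulated (edgeR). DESeq2 called Alb, Ttr, and Hnf4a but not Apoa1, and called Apob, which had a log2 fold change of 0.59 in edgeR, whereas in edgeR Krt18 (0.33) and Afp (-0.09) were not called. With 1 tumor left out, Ttr was called in all 6 fits, Hnf4a in 4, Alb in 2, and Apoa1 in 1, and without Sora-treated tumor 4 in the case of Ttr alone (adjusted p = 0.046). The mean of the hepatoma list was 6.50 to 6.79 in control tumors and 6.58 to 6.81 in Sora-treated tumors. The part of these cell markers in the change of the members was not tested.

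Genes outside the members whose log2(CPM + 1) was most like the mean of the members were sought among 14103 genes with at least 1 CPM on average, over the 6 tumors. Tgtp2 came first (Pearson's r = 0.998), followed by Cxcl10 (0.994), the lysosomal membrane gene Lamp1 (0.992), and Gm4841 and Gbp10 (0.991 each). Cd22, Gbp4, Serpinb6b, Sppl2a, and Dtwd2 completed the 10 with r of at least 0.988. Their sizes of change differed, with log2 fold changes of -0.13 for Lamp1 and -0.53 for Gm4841. With 6 libraries and 14103 genes, such values are a description without a test.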

How the data were processed

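Whole tumors were profiled by RNA-seq, 1 library per tumor, on a BGISEQ sequencer. The authors deposited counts, whole numbers of reads per gene without normalization, and FPKM, which the authors computed from counts, gene length, and library total. The paper names Bowtie2 and GRCm38, whereas the submitters' processing notes list fastp, HISAT2, HTSeq, R 3.2.0, DESeq2, and GRCm39; the files hold no coordinates, and 1348 of 26167 symbols are not in RefSeq's GRCm38.p6 table, so the build of the counts is uncertain. Coordinates are given only for RefSeq promoters. The annotation and the use of strand are not given in the sources used here.

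Counts of Sora-treated tumor 4 were recovered from FPKM: 100% of values for 20951 genes came within 0.001 of a whole number, 342 genes (512 reads) had no known length, and each of the 5 known tumors came back exactly. Genes that reached 10 counts in 3 or more tumors were tested in R 4.3.3 with edgeR 4.0.16 (TMM, glmQLFit without robust fitting, glmQLFTest) at a Benjamini-Hochberg adjusted p of 0.05; the standard error is the log2 fold change divided by the square root of F. The biological coefficient of variation was 0.132. Alternatives were DESeq2 1.42.0 with default parameters, its size factors or total counts in edgeR, other filters, robust=TRUE, a replicate block, each tumor left out, and limma 3.58.1 on log2 of FPKM with a pseudocount of 1 or 0.1 where 3 tumors reached 1 FPKM, and with a pseudocount of 1 over all genes. The scripts were tested on simulated data. Whether tumors came from separate mice is not stated for each library, so p-values measure the spread between tumors.

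The members and gene lists were chosen with earlier results of these data known. The text names all members and every tested gene of the list of other GBP and IRG genes. It names fixed genes of signaling (Ifng, Ifngr1, Ifngr2, Jak1, Jak2, Irf1, Socs1) and of targets (Cxcl9, Cxcl10, Ciita, Cd274, Psmb9). Also named are every list gene with an adjusted p under 0.05, the 3 markers per cell type with the highest mean CPM, and the 10 genes most like the members. Iigp1c, Socs3, Il18r1, Cd74, Slamf8, Apob, Nkg7, Gm43302, Ncr1, Klrb1c, Ahsg, Itgam, Cd14, and Ido1 were chosen after values were seen. So were the sums and ratios of genes. Transcript similarity was computed with blastn on GENCODE M21 (matches of at least 100 bases at 95% identity). Some family genes were not analysed here, and 1 gene of the signaling list is not reported here.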

Additional observations from a re-analysis of the deposited data

How the results depend on the processing

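All 10 members kept a log2 fold change under 0 in the 16 alternatives, and the median stayed between -0.56 (Sora-treated tumor 3 left out) and -0.32 (tumor 2 of that group left out, and also with the replicate block). Of the 160 values of members in these alternatives, 126 stayed on their side of the threshold, 16 lost a call, and 18 gained one. DESeq2 called 619 genes up-regulated, 575 down-regulated, and 8 members. Without a filter on low counts the numbers were 570, 577, and 9. With limma on log2(FPKM + 1) they were 180, 106, and 1, and on log2(FPKM + 0.1) they were 166, 86, and 1, with Irgm2 the member called. With limma on log2(FPKM + 1) of all genes they were 0, 0, and 0, whereas 1588 genes higher, 1527 lower, and 8 members had an unadjusted p under 0.05 (5.96% of all genes were lower). Leaving out 1 tumor gave 4 to 574 genes up-regulated, 1 to 571 down-regulated, and 0 to 6 members, with the lowest counts of genes when Sora-treated tumor 4 was dropped and the highest when tumor 3 of that group was. The cause of these shifts was not tested. Both groups share the numbers 3 and 4. Deviations of same-numbered tumors from their group means had r = -0.03 and -0.07 across genes. Those of tumors with different numbers had r from -0.16 to 0.26. With so few same-numbered tumors, these values cannot tell whether the numbers pair the tumors. With the replicate number as a block edgeR called 80 genes up-regulated, 45 down-regulated, and 0 members. In that fit 7 members were lower at an unadjusted p under 0.05, as were 4.1% of all genes. Control tumor 1 and Sora-treated tumor 2 share their number with no other tumor. The fold changes of the blocked fit therefore rest on tumors 3 and 4 of each group. Each member had at least 1997 reads in every tumor; fits at lower depth were not run.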
